A study of Mus musculus with 6 samples.

Results

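The subject is a group of 9 endoplasmic reticulum (ER) stress genes, Hspa5, Hsp90b1, Ddit3, Atf4, Xbp1, Trib3, Asns, Herpud1 and Dnajb9. They were found by gene name among the non-control features of the arrays, which gave 13 probes among 41174, and 9 genes among 28478 gene names. The rule names the genes and uses no measured value, though the group was chosen with earlier results of these data known. Each array measured 1 kidney of a CD-1 mouse, an outbred stock. In the ligated group (n = 3 kidneys, mice 495, 485 and 512) the kidney lay on the side of a completely tied left ureter, and in the contralateral group (n = 3) it was the untied right kidney of the same animals. Both groups carry no other treatment or allele in the labels, and every contralateral kidney came from an animal with an obstructed kidney on the other side, so no kidney of an unoperated mouse was measured. Age, sex and the time after ligation are not given in the sources used here, and the labels call the material kidney in one field and primary cells in another.

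Proteins that enter the secretory pathway fold in the lumen of the ER with the help of chaperones. When unfolded proteins build up, 3 sensors of the ER membrane start the unfolded protein response: IRE1 splices Xbp1 mRNA, ATF6 is cleaved into a transcription factor, and PERK phosphorylates eIF2alpha, which lowers general translation and favours translation of ATF4. ATF6 and XBP1 raise the chaperones and the machinery that degrades misfolded proteins, while ATF4, which is also reached by other stress kinases, raises amino acid synthesis and transport genes and the death-linked factor CHOP, the product of Ddit3. Proximal tubule cells, plasma cells and collagen-secreting fibroblasts all carry a large load of ER protein.

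No member was called higher in the ligated kidney, and 1 of 9, Dnajb9, was called lower. All 9 passed the filter on dim probes, and each of the 13 probes was well above background on all 6 arrays. Over all 19598 genes tested, 16% were called higher and 14.7% lower, 30.7% in either direction (limma with the mouse as a block, Benjamini-Hochberg adjusted p under 0.05). At an unadjusted p under 0.05 stood 2 of the 9 members, Atf4 and Dnajb9, and 9833 of all genes. The median log2 difference of the 9 members, ligated minus contralateral, was -0.18, against -0.01 over all genes. The 3 ligated levels of a gene lay apart from its 3 contralateral levels for 0 of the 9 members and for 53.5% of all genes. Within mice, 3 members (Atf4, Herpud1 and Dnajb9) were lower in the ligated kidney of all 3 animals, as were 37.9% of all genes, and 0 members were higher in all 3, as were 34.3% of all genes.

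Levels below are the processed signal of a probe divided by the 75th percentile of its array, so a level of 1 means a probe as bright as that percentile. That percentile itself differed: it was 671 to 1106 intensity units in contralateral kidneys and 1068 to 1432 in ligated kidneys. Between 65.3% and 69.0% of probes were above background on contralateral arrays and between 71.6% and 74.2% on ligated ones. The choice of scaling therefore bears on small differences, and the values under other scalings are given with the members. Log2 differences are given ± SE with n = 3 mice, and intervals are 95% confidence intervals of the fit.

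**Figure D1:**
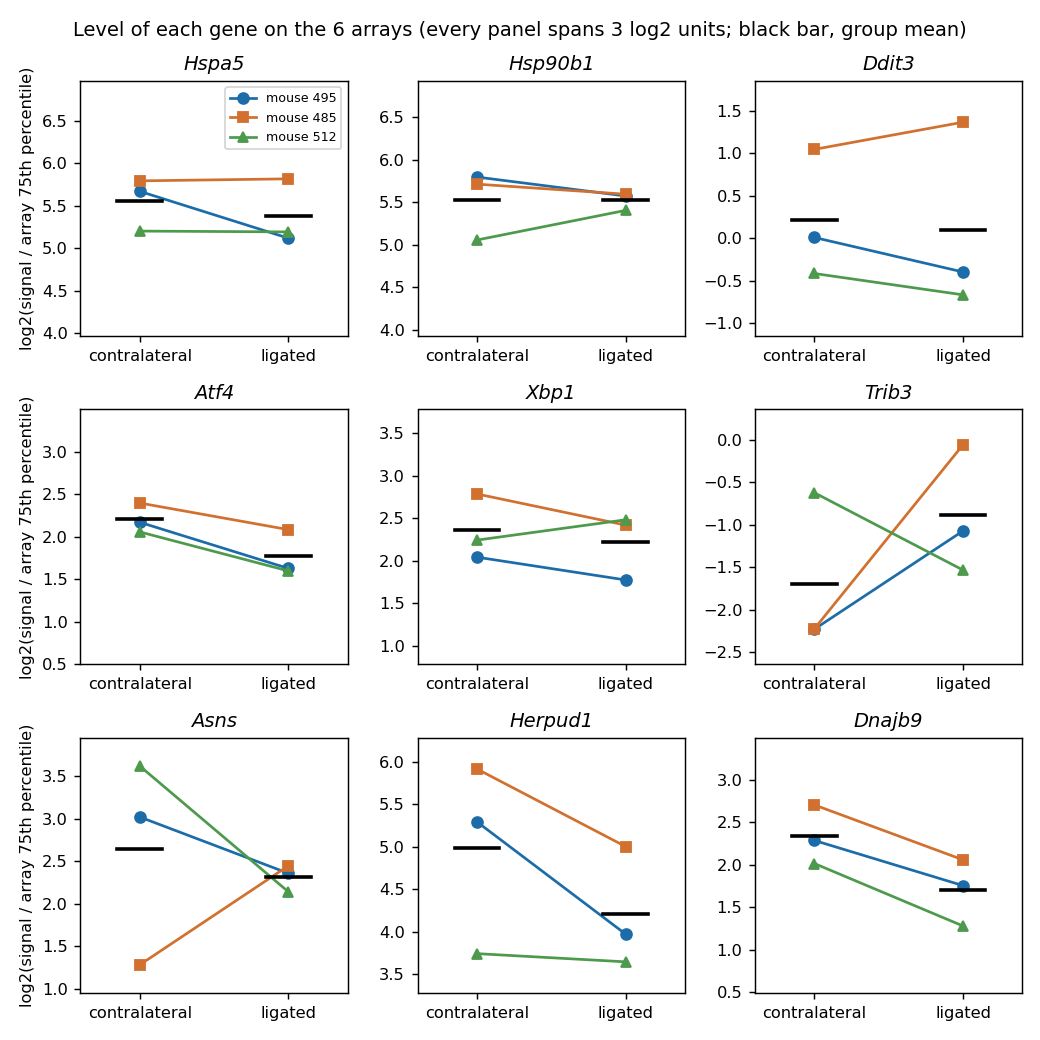
Level of each of the 9 genes on the 6 arrays, as log2 of the processed signal over the 75th percentile of the array (vertical axis), for contralateral and ligated kidneys (horizontal axis); lines join the kidneys of 1 mouse and black bars are group means. The levels of the groups overlap in all 9 panels, the lines of Atf4, Herpud1 and Dnajb9 all point down, and those of Trib3 and Asns cross.

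Hspa5 encodes BiP, the main Hsp70 chaperone of the ER lumen and the usual readout of ER stress. Mice 495, 485 and 512 had levels of 50.9, 55.4 and 36.8 on the untied side, against 34.7, 56.3 and 36.6 on the ligated side. The kidneys of mouse 485 were the highest of each group, and the groups overlapped almost completely. The fitted log2 difference was -0.18 ± 0.19 (interval -0.70 to 0.34, adjusted p = 0.475), which holds a rise of at most 0.34 on this scale. In single mice it was -0.55, 0.024 and -0.0094, so mouse 495 alone moved away from 0. The value was 0.53 with quantile normalization and 0.14 on a scale set by the spike-in spots, neither past the threshold, so the sign of the Hspa5 difference followed the scaling.

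Hsp90b1 encodes GRP94, the Hsp90 of the ER lumen. Its brighter probe stood at 55.5, 52.4 and 33.2 in contralateral kidneys and at 47.6, 48.3 and 42.3 in ligated kidneys of mice 495, 485 and 512. The contralateral kidney of mouse 512 was the lowest of the 6, and the ligated kidneys lay inside the contralateral range. The fitted difference was 0.0024 ± 0.18 (interval -0.50 to 0.51, adjusted p = 0.992). The other probe gave 0.07 ± 0.21 (adjusted p = 0.802 over all probes), with mouse 495 at -0.32 and mouse 512 at 0.51. Quantile normalization alone called Hsp90b1 higher (0.72, adjusted p = 0.0391), and centring on the array median turned its sign (-0.30).

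The other Hsp90b1 probe and the single Ddit3 probe are printed because they show what kind of sequence the array reads. The Hsp90b1 probe matches chr10:86128383-86128442 (mm8, minus strand) and lies in the coding sequence. The match of the Ddit3 probe runs over chr10:126698411-126698714 (mm8, plus strand), 304 bases of genome for a probe of 60, so a gap of 244 bases divides it and it reads spliced RNA.
Hsp90b1 probe: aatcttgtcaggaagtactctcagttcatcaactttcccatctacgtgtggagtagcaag
Ddit3 probe: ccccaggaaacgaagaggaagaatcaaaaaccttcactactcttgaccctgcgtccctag

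The promoters of both chaperone genes hold the ER stress response element, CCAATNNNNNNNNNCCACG, through which ATF6 is known to act together with NF-Y. The RefSeq windows of GRCm38.p6 ran from 250 bases before to 50 after the annotated start. In them this motif occurred on either strand in 2 of the 9 member windows and in 0.119% of all 32851 windows (39 of them). The motif was chosen for its known part in ER stress, so these shares are a description and enrichment was not tested. Hspa5 held 1 copy, 65 to 47 bases before the start, and Hsp90b1 held 2 copies, at 212 to 194 and, on the opposite strand, 107 to 89 bases before it. A core motif shared by XBP1 and ATF6 sites, TGACGTG, was found in the Hspa5 window, 157 to 151 bases before the start, and in 2.01% of all windows. The 250 bases before each start follow, 5′ to 3′ along the gene, with these matches in capitals (Hspa5, chr2:34771840-34772089, plus strand; Hsp90b1, chr10:86705445-86705694, minus strand; GRCm38.p6). They are shown because both chaperone members hold the ER stress response element.
Hspa5: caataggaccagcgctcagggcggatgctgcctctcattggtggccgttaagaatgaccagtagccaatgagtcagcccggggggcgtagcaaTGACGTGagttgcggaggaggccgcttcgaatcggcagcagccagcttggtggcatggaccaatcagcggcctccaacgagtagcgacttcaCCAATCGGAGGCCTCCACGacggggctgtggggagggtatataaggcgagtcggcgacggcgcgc
Hsp90b1: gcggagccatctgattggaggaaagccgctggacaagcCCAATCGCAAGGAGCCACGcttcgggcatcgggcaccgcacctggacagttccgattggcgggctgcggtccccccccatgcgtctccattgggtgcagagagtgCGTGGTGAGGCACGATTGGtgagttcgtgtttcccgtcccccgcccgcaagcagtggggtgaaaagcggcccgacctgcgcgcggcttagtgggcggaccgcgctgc

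Dnajb9 encodes ERdj4, a DnaJ co-chaperone that works with BiP and is an XBP1 target. Mice 495, 485 and 512 had levels of 4.87, 6.51 and 4.04 on the untied side, against 3.37, 4.16 and 2.42 on the ligated side. Each ligated kidney lay below its own partner by a similar step (log2 differences of -0.53, -0.65 and -0.73), while the groups overlapped because the mice differed in level. Dnajb9 fell by 0.64 on the log2 scale (-0.64 ± 0.14, interval -1.03 to -0.25, adjusted p = 0.0417), a 1.56-fold fall. Its 2 other probes gave -0.69 ± 0.13 (adjusted p = 0.0348 over all probes) and -0.55 ± 0.13 (0.0487). The 3 probes lie on chromosome 12 of mm8, from 45076612 to 45076671, 45076732 to 45076791 and 45077208 to 45077267. The call was lost without the mouse block (adjusted p = 0.120), with quantile normalization (-0.33, 0.173), with the spike-in scale (-0.31, 0.687), with no filter (0.0849), and without mouse 495 (0.238) or mouse 485 (0.219), where no gene passed. It was also lost in the unpaired fit without the contralateral kidney of mouse 512 (-0.80, 0.0569), while the value kept its sign in all 15 alternatives.

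Herpud1 encodes a ubiquitin-like membrane protein of ER-associated degradation. Its level was 39.2, 60.4 and 13.4 in contralateral kidneys and 15.7, 32.1 and 12.5 in ligated kidneys of mice 495, 485 and 512. Both kidneys of mouse 512 were low and close to each other, and in the other mice the ligated kidney was well below its partner. The fitted difference was -0.78 ± 0.29 (interval -1.57 to 0.02, adjusted p = 0.103), from -1.32, -0.91 and -0.10 in the single mice. Without mouse 512 it was -1.12 and passed (adjusted p = 0.0138), in a fit where 54.9% of all genes passed. It also passed in the unpaired fit without the contralateral kidney of mouse 512 (-1.40, adjusted p = 0.0463), where 56.5% of all genes passed. With centring on the array median it was -1.08 (adjusted p = 0.0477). With quantile normalization it was -0.09. Against the mean of the other 2 contralateral kidneys, that of mouse 512 stood lower by a log2 difference of -1.86, at percentile 2.65 of that difference over all genes tested.

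Xbp1 encodes a transcription factor of the bZIP class whose mRNA is spliced by IRE1. Its level was 4.12, 6.90 and 4.74 in contralateral kidneys and 3.42, 5.35 and 5.59 in ligated kidneys of mice 495, 485 and 512. Mice 495 and 485 were lower on the ligated side and mouse 512 was higher, with single differences of -0.27, -0.37 and 0.24. The fitted value was -0.13 ± 0.19 (interval -0.65 to 0.39, adjusted p = 0.598), and it was 0.22 with quantile normalization and 0.19 on the spike-in scale. The array holds 1 Xbp1 probe, at position 894 of the transcript, so spliced and unspliced mRNA were not told apart.

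Atf4 encodes the transcription factor at the centre of the integrated stress response, which is controlled mainly at translation. Its level was 4.50, 5.27 and 4.16 in contralateral kidneys and 3.09, 4.24 and 3.03 in ligated kidneys of mice 495, 485 and 512. All 3 ligated kidneys were below their partners, by -0.54, -0.31 and -0.46, and mouse 485 was the highest on both sides. The fitted difference was -0.44 ± 0.14 (interval -0.83 to -0.04) and missed the threshold over all genes (adjusted p = 0.0823). It passed with centring on the array median (-0.74, adjusted p = 0.0278) and stood at -0.12 on the spike-in scale (0.892).

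Ddit3 (CHOP), a bZIP factor linked to cell death, stood at 1.01, 2.07 and 0.751 in contralateral kidneys and 0.760, 2.58 and 0.631 in ligated kidneys of mice 495, 485 and 512. The differences were -0.41, 0.32 and -0.25, so mouse 485 had the highest level in both groups and the one positive difference. The fitted value was -0.11 ± 0.21 (interval -0.68 to 0.46, adjusted p = 0.680), and 0.21 on the spike-in scale. The difference between mice was larger than that between kidneys: the contralateral kidney of mouse 495 stood lower than that of mouse 485 by a log2 difference of -1.04.

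Trib3 encodes a pseudokinase induced by ATF4 and CHOP. Its level was 0.213, 0.214 and 0.649 in contralateral kidneys and 0.475, 0.960 and 0.345 in ligated kidneys of mice 495, 485 and 512. The ligated kidney was higher in mouse 495 (1.16) and mouse 485 (2.16) and lower in mouse 512 (-0.91). This order, up in those 2 mice and down in mouse 512, was found for 9.31% of all genes tested. The fitted value was 0.80 ± 0.65 (interval -0.99 to 2.60, adjusted p = 0.366), and the other probe gave 0.56 ± 0.54 with the same signs in each mouse (0.71, 1.79 and -0.83). Without mouse 512 Trib3 passed at 1.66 (adjusted p = 0.0187), as it did in an unpaired fit without that mouse's contralateral kidney (1.34, 0.0490). In those fits 54.9% and 56.5% of all genes passed. Without mouse 485 Trib3 stood at 0.12.

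Asns encodes asparagine synthetase, an ATF4 target. Its level was 8.10, 2.43 and 12.3 in contralateral kidneys and 5.12, 5.44 and 4.40 in ligated kidneys of mice 495, 485 and 512. The ligated kidneys lay close together (SD 0.532 around a mean of 4.99) and inside the wide contralateral range (SD 4.94 around 7.60). The differences were -0.66, 1.17 and -1.48, and the fitted value was -0.33 ± 0.57 (interval -1.89 to 1.24, adjusted p = 0.663); without mouse 512 it was 0.25. For Trib3 and Asns the contralateral kidney of mouse 512 was the highest of its group, 1.60 and 1.47 above the mean of the other 2 on the log2 scale (percentiles 93.5 and 92.4 of all genes), while the other 7 members were below that mean.

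**Figure D2:**
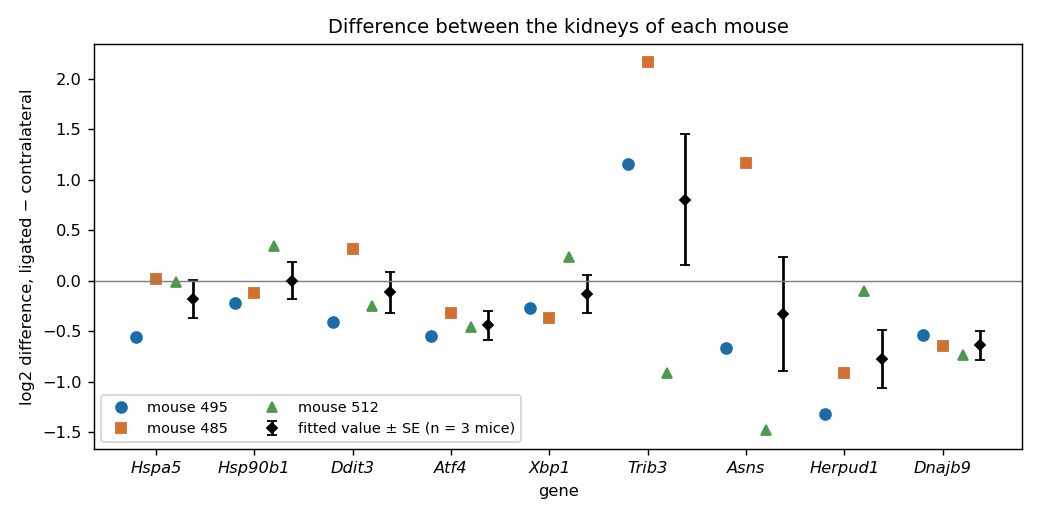
Log2 difference between the ligated and the contralateral kidney of each mouse (coloured points) and the fitted value ± SE over 3 mice (black diamonds) for the 9 genes. The 3 points of Dnajb9 lie between -0.53 and -0.73, whereas those of Trib3 run from -0.91 to 2.16 and those of Asns from -1.48 to 1.17.

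The ATF4 targets among the members are set beside their promoters because a C/EBP-ATF composite element, TGATGNAA, is the known route of amino acid and ER stress to Asns. The motif occurred on either strand in 3 of 9 member windows (Trib3, Asns and Herpud1) and in 3.97% of all windows. These shares, too, are a description with no test. In Asns it lay 23 to 16 bases before the start, in Herpud1 it began 112 bases before it, on the opposite strand, and in Trib3 after the start. A second form of the ER stress response element, ATTGG and CCACG parted by 1 base, was added after the windows had been seen; it occurred in the Herpud1 window alone of the members, 52 to 42 bases before the start, and in 0.0365% of all windows. The windows of Ddit3, Atf4, Xbp1 and Dnajb9 held none of the 4 motifs. The 250 bases before the starts of Asns (chr6:7693210-7693459, minus strand) and Herpud1 (chr8:94386179-94386428, plus strand) follow in GRCm38.p6, with the matches in capitals. They are shown because they are the members with the composite motif before the start.
Asns: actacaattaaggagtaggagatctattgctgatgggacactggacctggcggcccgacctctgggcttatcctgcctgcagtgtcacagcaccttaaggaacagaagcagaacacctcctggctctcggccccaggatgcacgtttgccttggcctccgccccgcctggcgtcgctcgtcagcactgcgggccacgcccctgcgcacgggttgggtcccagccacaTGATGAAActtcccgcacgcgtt
Herpud1: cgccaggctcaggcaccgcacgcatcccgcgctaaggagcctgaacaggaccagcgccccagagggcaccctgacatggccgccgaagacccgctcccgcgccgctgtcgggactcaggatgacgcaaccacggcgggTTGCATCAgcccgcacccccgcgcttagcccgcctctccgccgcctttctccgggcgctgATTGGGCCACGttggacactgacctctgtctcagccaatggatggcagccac

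**Figure D3:**
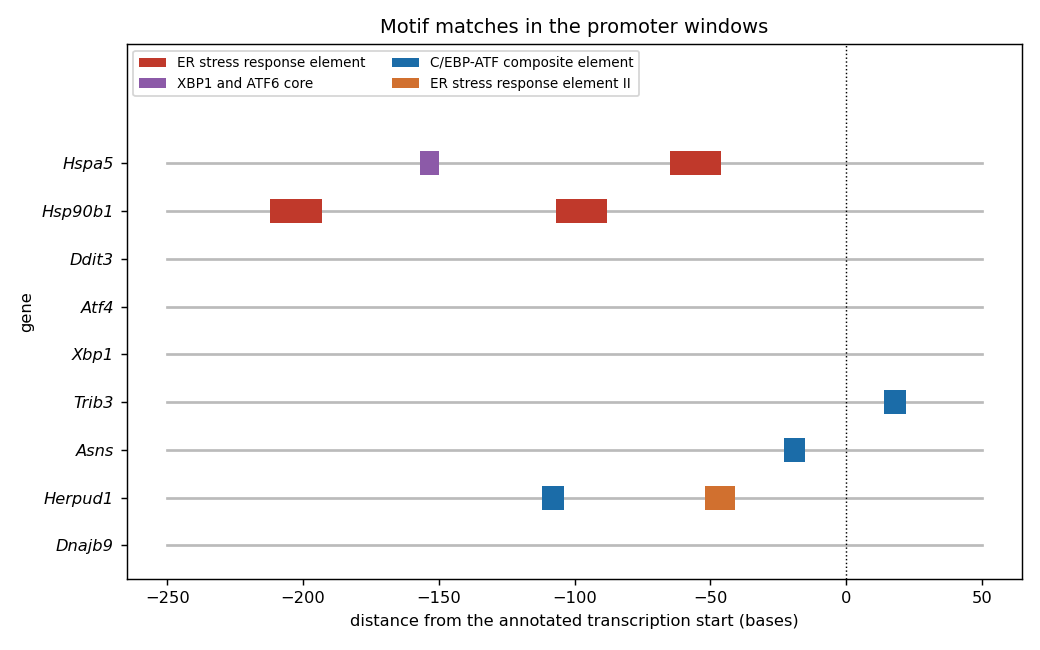
Position of the motif matches (coloured bars, to scale) in the promoter windows of the 9 genes, in bases from the annotated transcription start (dotted line). Hspa5 and Hsp90b1 hold the ER stress response element, Asns, Herpud1 and Trib3 the composite element, and 4 windows hold no match.

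Scaling changed the sign or the call of several members. Over all genes the split of 3135 higher and 2884 lower became 2561 and 5938 when arrays were centred on their median, and 2449 and 653 under spike-in centring. Centring on the array median shifted the median of all genes to -0.32, that of the members to -0.49, and called 3 of 9 lower (Atf4, Herpud1 and Dnajb9). Centring on the spike-in spots shifted all genes to 0.31 and the members to 0.14, with 0 of 9 called in either direction (0 at an unadjusted p under 0.05; smallest adjusted p 0.334). Each of these scalings subtracts 1 constant per array, so the gap between members and all genes is the same by construction. Quantile normalization moved members unequally, Hspa5 from -0.18 to 0.53, Ddit3 from -0.11 to -0.023 and Trib3 from 0.80 to 0.67. With quantile normalization the median was -0.0035 for the members and 0.01 for all genes. Trib3 was positive and Atf4, Herpud1, Dnajb9 and Asns negative under all 4 scalings (Asns at -0.0035 with quantile normalization and -0.0027 on the spike-in scale), while Hspa5, Hsp90b1, Ddit3 and Xbp1 changed sign.

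**Figure D4:**
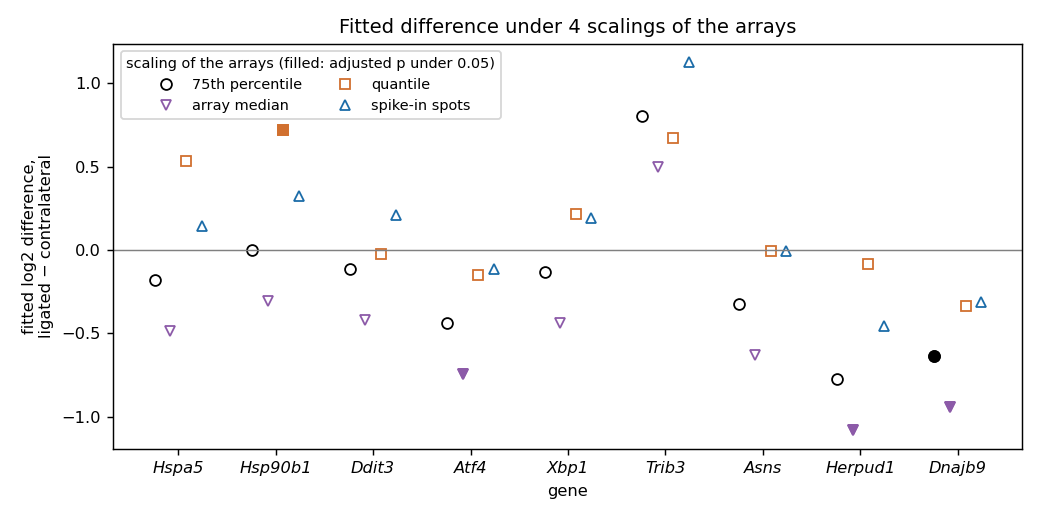
Fitted log2 difference of the 9 genes (ligated minus contralateral) under 4 ways of scaling the arrays; filled symbols passed an adjusted p under 0.05. Dnajb9 is filled at -0.64 and at -0.94 with the array median, Hsp90b1 at 0.72 with quantile normalization, and no gene is filled on the spike-in scale.

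Other genes of the same pathways were counted from 6 lists of known function. Of 124 tested genes in these lists, 11 were called higher and 19 lower, with a median log2 difference of -0.28, against -0.01 over all genes. The share called higher was 8.87%, against 16% of all genes, and the share called lower 15.3%, against 14.7%. At an unadjusted p under 0.05 stood 48.4% of them and 50.2% of all genes. The count of lower genes depended on the scaling: it was 53 with the array median, 8 with quantile normalization and 2 with the spike-in spots. With no filter on dim probes 6 were higher and 3 lower, and of the genes named below Mbtps2, Serpinh1, Sdf2l1, Derl3, Sec62, Derl2, Derl1, Eif2b5, Tmbim6 and Bcl2l11 did not pass (adjusted p of 0.0504 for Serpinh1 to 0.0889 for Mbtps2). The list medians also followed the scaling: that of the chaperones was -0.18, but 0.19 with quantile normalization and 0.14 on the spike-in scale, and that of the ATF4 targets was -0.10, but 0.08 and 0.22.

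Of 12 stress sensor and protease genes, 0 were called higher (against 16% of all genes) and 1 lower (8.33%, against 14.7%). Their median was -0.04. The sensor genes Ern1 (IRE1) at 0.17 ± 0.16, Eif2ak3 (PERK) at 0.35 ± 0.22 and Atf6 at -0.16 ± 0.15 did not pass. These 3 were picked by role, not by the naming rule. The called gene was Mbtps2, the site-2 protease that cuts ATF6 (-0.61 ± 0.14, adjusted p = 0.0423), but another probe of the gene stood at 0.59 ± 0.24 and did not pass, and the mean of its probes was -0.0083. Of 11 tested genes for eIF2alpha kinases, eIF2B and phosphatase subunits, 0 were higher and 1 lower (9.09%, against 14.7% of all genes). The lower gene was Eif2b5, an eIF2B subunit (-0.70 ± 0.17, adjusted p = 0.0468). The list median was -0.54, but -0.02 with quantile normalization and -0.22 on the spike-in scale. With the array median it was -0.85, and 8 were lower (72.7%, against 30.3% of all genes). On the spike-in scale neither Mbtps2 (-0.28) nor Eif2b5 (-0.37) passed. With normexp neither did (adjusted p = 0.0768 and 0.0517), and Mbtps2 was also lost with an intensity trend (0.0644) and Eif2b5 with quantile normalization (-0.51, 0.0632).

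ER chaperones and foldases had 3 of 28 members called higher (10.7%, against 16% of all genes) and 0 lower (against 14.7%), at a median of -0.18. Those that rose were Fkbp10 (6.10-fold, 2.61 ± 0.42) and Serpinh1, also known as HSP47 (2.48-fold, 1.31 ± 0.23), both of which serve collagen folding, and Sdf2l1 (1.59-fold, 0.67 ± 0.15), a BiP partner. Without the contralateral kidney of mouse 512 Fkbp10 stood at 3.24. Among the members without a call, picked by role, Calr stood at -0.50 ± 0.19, Pdia4 at 0.04 ± 0.17 and Hyou1 at -0.26 ± 0.22. The largest falls without a call, picked after their values were seen, were P4hb (-1.03 ± 0.27, adjusted p = 0.0562) and Sil1 (-0.96 ± 0.27, 0.0605). The share lower was 32.1% with the array median, against 30.3% of all genes, and 35.7% without mouse 512, against 28.1%. It was 3.57% with quantile normalization, against 13.2%, and 0 on the spike-in scale, against 3.33%. The probes of Canx disagreed: the brightest stood at -0.16 and the others at -0.62 and -0.82, the last of which passed. Sdf2l1 did not pass with the array median (0.36, adjusted p = 0.141) or on the spike-in scale (0.99, 0.155). Beside the 2 collagen chaperones, 10 of 12 fibroblast and myofibroblast markers were higher, against 16% of all genes. Fap and Postn, among these, were above background on 0 and 2 contralateral arrays and passed the filter only through the ligated group. The mean log2 level of that list ran from -1.39 to 0.74 in contralateral and from 1.96 to 2.71 in ligated kidneys. Its part in the rise of Fkbp10 and Serpinh1 was not tested. The arrays read whole tissue, where fewer cells of a type and less RNA per cell cannot be told apart.

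Genes of ER-associated degradation and of the translocon had mostly negative differences, to an extent that followed the scaling. Of 29, 1 was called higher (3.45%, against 16% of all genes) and 4 lower (13.8%, against 14.7%), at a median of -0.45. A negative value was found for 27 of 29 and for 50.7% of all genes. On the spike-in scale 20 of 29 were negative, against 34.9% of all genes, and with quantile normalization 16 of 29, against 49.4%. Sec62, a translocon component, fell 2.40-fold (-1.26 ± 0.23), and Derl2 and Derl1, members of the derlin family of the degradation channel, fell 1.88-fold and 1.83-fold. On the spike-in scale Sec62 (-0.94), Derl2 (-0.59) and Derl1 (-0.55) did not pass. Derl2 and Derl1 were also lost with quantile normalization (-0.27, adjusted p = 0.170, and -0.45, 0.0698), and Derl2 with the mean of its probes (-0.51, 0.0696). The other Derl2 probe stood at -0.10, and neither it nor 1 of 4 Derl1 probes (-0.55) nor the other Sec62 probe (-0.81) passed. The one higher gene was Derl3, a derlin of secretory cells (2.47-fold, 1.30 ± 0.30), with its largest difference in mouse 512 (2.06, against 0.80 in mouse 495 and 1.05 in mouse 485). With the array median it stood at 1.00 and did not pass (adjusted p = 0.0643). Derl3 was also listed with B and plasma cell markers. Of those 12, 8 were higher, Derl3 included, against 16% of all genes. Cd79a, among the 12, was above background on 1 contralateral array and passed the filter only through the ligated group. The mean level of the 12 ran from -2.47 to -1.82 in contralateral and -0.82 to 0.72 in ligated kidneys, highest in the ligated kidney of mouse 512. The part of those cells in the Derl3 value was not tested.

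ATF4 and integrated stress response targets moved in both directions. Of 30 tested, 4 were called higher (13.3%, against 16% of all genes) and 10 lower (33.3%, against 14.7%), at a median of -0.10. The share lower was 13.3% with quantile normalization, against 13.2% of all genes, and 6.67% on the spike-in scale, against 3.33%. Slc7a11, called higher, was above background on 0 contralateral arrays and passed the filter only through the ligated group. With probes above background on all arrays 3 of 28 were higher (10.7%, against 14.1%) and 11 lower (39.3%, against 19.3%). Nupr1, a stress-induced chromatin protein, rose 4.03-fold (2.01 ± 0.20) and Stc2, a secreted glycoprotein, 3.83-fold (1.94 ± 0.28). Cth, the transsulfuration enzyme cystathionine gamma-lyase, fell 5.08-fold (-2.35 ± 0.30) and Psat1, an enzyme of serine synthesis, 3.06-fold (-1.61 ± 0.24). Psat1 did not pass on the spike-in scale (-1.29, adjusted p = 0.115), and Cth stood at -2.96 without the contralateral kidney of mouse 512. Mouse 485 had the one positive list median, 0.33, against -0.26 for mouse 495 and -0.67 for mouse 512, as was the case for Asns. Atf3, a bZIP factor, and Mthfd2, a mitochondrial folate enzyme, were picked after their values were seen for having the signs of Trib3 and of Asns in single mice: Atf3 stood at 3.79, 2.41 and -0.93 and Mthfd2 at -0.29, 1.62 and -1.02.

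ER-stress-linked death and kinase genes had 3 of 14 members higher and 3 lower (21.4% each, against 16% and 14.7% of all genes). Their median was 0.23, but -0.07 with the array median, 0.07 with normexp and 0.56 on the spike-in scale. With quantile normalization 3 were higher and 0 lower, against 13.4% and 13.2% of all genes. On the spike-in scale the counts were 2 and 0, against 12.5% and 3.33%. With no filter they were 2 and 0, against 6.18% and 3.17%. With the array median they were 3 and 3, against 13.1% and 30.3%. Casp12, a caspase found at the ER, rose 10.0-fold (3.32 ± 0.37), and Casp4, the inflammatory caspase-11 of mice, 8.01-fold (3.00 ± 0.41). The log2 value of Casp12 was 2.30 with normexp, and without the contralateral kidney of mouse 512 it was 4.06 for Casp12 and 3.79 for Casp4; each passed. Bcl2l11 (BIM) rose 2.59-fold (1.37 ± 0.27), though neither of the remaining probes, at 0.72 and 0.32, passed. Tmbim6, the ER-resident Bax inhibitor 1, fell 2.76-fold (-1.46 ± 0.30). Neither Bcl2l11 (1.70, adjusted p = 0.0501) nor Tmbim6 (-1.14, 0.0857) passed on the spike-in scale, and Tmbim6 was also lost with quantile normalization (-0.74, 0.0527). Of 12 macrophage markers, 11 were higher, against 16% of all genes. Cd163, among these, was above background on 2 contralateral arrays and passed the filter only through the ligated group. The mean level of the 12 was -1.39 to 0.85 in contralateral and 2.26 to 2.65 in ligated kidneys. The part of macrophages in the values of the caspases was not tested.

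**Figure D5:**
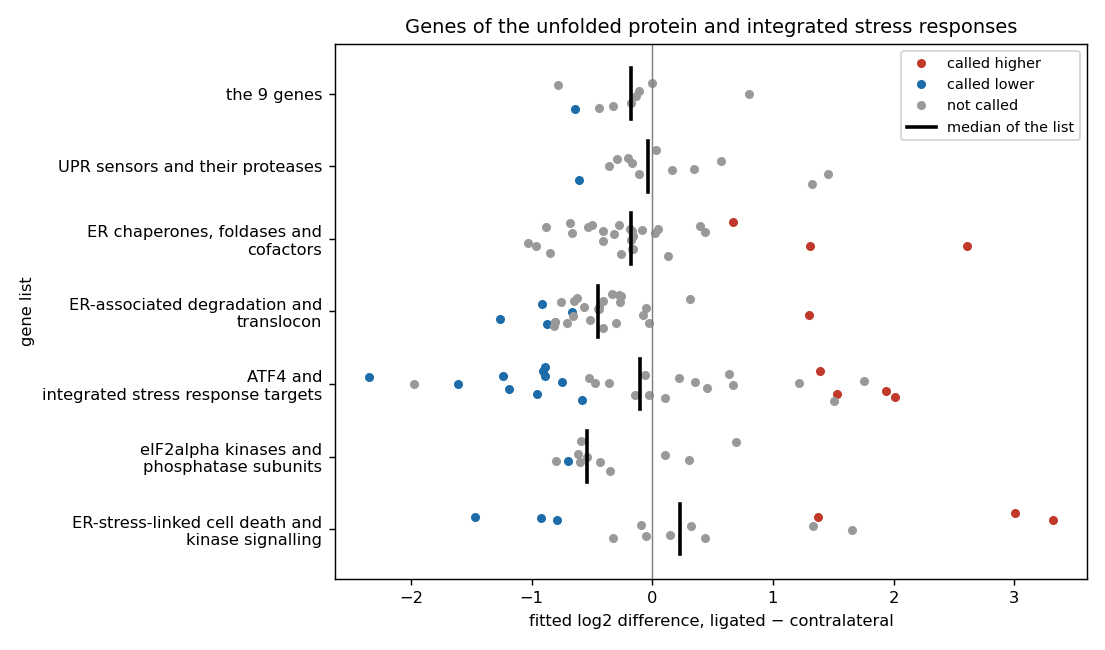
Fitted log2 difference (horizontal axis, ligated minus contralateral) of every tested gene of the 9-gene group and of 6 lists of related function; red and blue points passed an adjusted p under 0.05 and black bars are list medians. The 9 genes lie between -0.78 and 0.80, with 1 blue point, while the widest lists run from -2.35 to 2.01 (ATF4 targets) and up to 3.32 (cell death).

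The markers of the labelled organ were present: all 12 proximal tubule genes, Slc34a1 and Lrp2 among them, were above background on all 6 arrays. Of these, 8 were lower in the ligated kidney and 0 higher, against 14.7% and 16% of all genes. Their mean log2 level was 4.20 to 6.41 in contralateral and 2.66 to 3.60 in ligated kidneys. The contralateral kidney of mouse 512 had the lowest proximal tubule level and the highest macrophage and fibroblast levels of its group. Within its group the same kidney was lowest for Hspa5, Hsp90b1, Ddit3, Atf4, Herpud1 and Dnajb9, highest for Trib3 and Asns, and in the middle for Xbp1. It was also the highest of its group for 7723 of all 19598 genes. The part of the marker shifts in the values of the 9 genes was not tested. Slide goes with mouse (mice 495 and 485 on slide 1, mouse 512 on slide 2), so the slide and mouse 512 cannot be told apart.

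For a description of likeness over the 6 arrays, the 3 genes with the highest Pearson correlation to Hspa5 outside the group were Pawr (0.983), Psors1c2 (0.983) and Pla2g3 (0.981). For Ddit3 they were the transcript AK054376 (0.983), Sfrs11 (0.978) and the array's TC1682954 (0.975). These 6 arrays are 3 pairs and 19598 genes were searched, and 0 of these 6 genes were called.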

How the data were processed

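Both kidneys of 3 mice were measured on 6 single-colour arrays. Scanner output was deposited for each array. Its processed signal is a background-subtracted and detrended intensity on a linear scale with no scaling between arrays, per the file headers (Feature Extraction 10.5.1.1, probe positions in mm8; the submitters' processing notes name version 9.1). The deposited value table holds a ratio, the processed signal over its array median: 100% of spots lay within 0.1% of 1 factor per array, and every column has a median of 1. The deposited flags of 0 or 1 mark spots above background or outlying. Control spots and flagged outlier spots (43 to 79 per array) were removed, and 0 spots were saturated. Signals were log2-transformed and the array's 75th percentile was subtracted. Of 41174 probes, 24375 took a symbol by RefSeq accession and 16799 kept their file name. Probes above background on all 3 arrays of a group were kept, and each gene was represented by its brightest probe on average. The test was limma 3.58.1 run under R 4.3.3 (two-sided, Benjamini-Hochberg, threshold 0.05), with the mouse as a block because both kidneys came from 1 animal; the residual degrees of freedom were 2 and the prior ones 2.06. Deviations from the group means correlated within mice (r = 0.194, 0.481 and 0.271), above every correlation between mice. The fit was tested on simulated data. Its p-values rest on the spread of these 3 pairs, moderated by the spread over all genes tested, which the prior degrees of freedom weigh. Genes named besides the members were, per list, up to 4 called genes, those changed most. Others from the lists are marked as picked by role or after their values were seen. Canx and Slc7a11 were named for their probe values and background calls once these had been seen. The number of arrays limits the precision. Members and lists were chosen with earlier results of these data known. Promoter windows and their letters are RefSeq's (GRCm38.p6); all 9 members matched.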

Additional observations from a re-analysis of the deposited data

How the results depend on the processing

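Across 15 other settings, 1 of them chosen after seeing the data (the unpaired fit without the contralateral kidney of mouse 512), Atf4, Herpud1, Dnajb9 and Trib3 kept their sign. Signs turned for Hspa5 (0.53 with quantile normalization, 0.14 on the spike-in scale, 0.0072 without mouse 495), Xbp1 (0.22 and 0.19 with the first 2 of these), Ddit3 (0.21 on the spike-in scale, 0.034 without mouse 495), Hsp90b1 (-0.30 with the array median and with the deposited value table, -0.17 without mouse 512, -0.23 without its contralateral kidney) and Asns (0.25 and 0.16 in those last 2 fits). Leaving out 1 mouse gave a lowest and highest value of -0.28 and 0.0072 for Hspa5, -0.17 and 0.12 for Hsp90b1, -0.33 and 0.034 for Ddit3, and -1.07 and 0.25 for Asns. Against 0 members higher and 1 lower, there were 1 and 0 with quantile normalization and 3 lower with the array median or the value table. There were 0 lower on the spike-in scale, with no filter and with no replicate block. Without the contralateral kidney of mouse 512, 1 was higher (Trib3) and 1 lower (Herpud1 in place of Dnajb9). Pathway genes, 11 higher and 19 lower, became 8 lower with quantile normalization, 53 with the array median or the value table, 2 on the spike-in scale, 30 with an intensity trend, 35 when slide replaced mouse, 6 and 3 with no filter, and 23 and 52 without the contralateral kidney of mouse 512. All genes, 3135 higher and 2884 lower, became 5938 lower with the array median or the value table, 653 lower on the spike-in scale, 1992 higher with normexp, 1760 and 902 with no filter, and 5152 and 6031 without that kidney. The median of the array and the value table give the same values by construction. Leaving out 1 mouse gave 0 to 5420 genes higher and 0 to 5686 lower, 0 to 25 and 0 to 49 pathway genes, and 0 to 1 and 0 to 2 members; the zeros are the fits without mouse 495 or mouse 485, where limma called 0 genes at all (4977 and 5013 at an unadjusted p under 0.05), and the highest counts are those without mouse 512. The pairing of kidneys by mouse is from the labels: without the replicate block the members called lower went from 1 to 0, and Dnajb9 stood at an adjusted p of 0.120. No spot was flagged as saturated, and all member probes were above background. Whether bright spots, such as those of Hspa5 and Hsp90b1, lose response below saturation was not tested.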
